A study of Homo sapiens with 42 samples.

Results

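Accessible chromatin was compared between MCF10A cells given epidermal growth factor (EGF) for 24 h and cells given phosphate-buffered saline (PBS), the vehicle, for 24 h. MCF10A is a cell line derived from human breast epithelium that does not form tumours. All cells had grown in medium with EGF and insulin, and were then held for 18 h in experimental medium without both, which kept horse serum, hydrocortisone and cholera toxin. EGF was added at 10 ng/ml in fresh experimental medium, and the PBS cells received the same medium without it. ATAC-seq, in which a transposase cuts and tags open DNA for sequencing, gave 4 EGF libraries (replicates A to D) and 3 PBS libraries (A to C), which are 7 of the 42 libraries of the series. The members of the comparison were taken from the labels, and no measured value chose them. The study's methods describe the replicates as biological, and the labels do not say which cultures the letters stand for, so p-values measure the spread between these libraries. Libraries of cells given EGF or PBS for 48 h, and of ctrl cells taken at 0 h, were used only to describe the same sites at other times.

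EGF binds the receptor EGFR and activates the RAS and MAPK cascade. That cascade raises immediate early transcription factors, among them the FOS and JUN proteins, which pair as AP-1 and bind the letters TGACTCA in enhancers. TEAD factors act with the co-activators YAP and TAZ, RUNX factors act in epithelial and blood lineages, and ATF4 and CHOP belong to the response to amino acid shortage and endoplasmic reticulum stress. The usual growth medium of these cells contains EGF, and the study reports that the ligands HGF and OSM also raised their growth without it.

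Merging the peaks of the 7 libraries on the autosomes and chromosome X, where they overlapped by at least 1 bp, gave 112260 sites with a median width of 423 bp. Of these, 20878 had a peak in all 7 libraries and 31900 in a single library. Sites within 1000 bp of a protein-coding transcription start, here called promoter-proximal, made up 13.1% of all sites and 37.4% of those in all 7 libraries. Introns held 39.6% of all sites and the space between genes 45%.

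The windows below, on the forward strand of hg38, are centred on the summits of sites that carried the contrast, and show where the sequence motifs named later lie. They were picked for display because they hold these letters, so they do not show how common the letters are. The first 4 sites had more accessible chromatin with EGF, and the capitals mark AP-1 (TGACTCA), TEAD (CATTCC) and RUNX (TGTGGTT) letters on either strand. TMEM184C holds AP-1 and RUNX letters, and TGFBR2 holds TEAD and RUNX letters.
KLF6 site, chr10:3924417-3924617: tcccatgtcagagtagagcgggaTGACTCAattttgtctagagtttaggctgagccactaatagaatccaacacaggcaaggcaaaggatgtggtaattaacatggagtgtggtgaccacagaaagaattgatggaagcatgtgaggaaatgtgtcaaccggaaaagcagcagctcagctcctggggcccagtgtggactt
ADARB2 site, chr10:2214170-2214370: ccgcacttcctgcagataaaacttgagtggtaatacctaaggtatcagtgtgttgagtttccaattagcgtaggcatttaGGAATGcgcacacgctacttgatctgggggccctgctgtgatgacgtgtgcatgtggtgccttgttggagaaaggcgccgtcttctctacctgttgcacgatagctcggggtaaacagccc
TMEM184C site, chr4:147578091-147578291: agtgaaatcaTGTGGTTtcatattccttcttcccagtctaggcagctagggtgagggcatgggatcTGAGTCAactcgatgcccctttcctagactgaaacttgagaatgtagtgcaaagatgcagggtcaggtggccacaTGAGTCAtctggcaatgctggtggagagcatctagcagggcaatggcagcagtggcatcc
TGFBR2 site, chr3:30511648-30511848: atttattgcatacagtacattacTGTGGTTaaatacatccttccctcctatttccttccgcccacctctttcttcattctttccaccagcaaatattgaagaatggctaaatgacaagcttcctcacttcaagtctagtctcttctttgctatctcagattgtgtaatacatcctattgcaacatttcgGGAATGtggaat
The next sites had less accessible chromatin with EGF. Capitals mark ATF4/CHOP letters (TTGCATCA) in the first and a p53/p63 half-site in the second.
TPRG1 site, chr3:188833217-188833417: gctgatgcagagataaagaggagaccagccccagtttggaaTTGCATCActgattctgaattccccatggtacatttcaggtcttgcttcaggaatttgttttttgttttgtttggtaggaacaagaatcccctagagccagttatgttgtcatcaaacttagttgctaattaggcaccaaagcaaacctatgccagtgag
ST6GALNAC2 site, chr17:76597410-76597610: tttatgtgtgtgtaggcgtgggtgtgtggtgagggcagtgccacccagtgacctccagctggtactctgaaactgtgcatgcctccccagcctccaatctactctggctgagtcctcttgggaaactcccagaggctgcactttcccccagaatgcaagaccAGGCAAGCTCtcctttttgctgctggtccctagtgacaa
The last pair had a peak in every library of one treatment and in none of the other, in EGF for PPP1R12A and in PBS for BTG1. Capitals mark AP-1 and TEAD letters, which share bases in PPP1R12A, and a p53/p63 half-site in BTG1.
PPP1R12A site, chr12:79897737-79897937: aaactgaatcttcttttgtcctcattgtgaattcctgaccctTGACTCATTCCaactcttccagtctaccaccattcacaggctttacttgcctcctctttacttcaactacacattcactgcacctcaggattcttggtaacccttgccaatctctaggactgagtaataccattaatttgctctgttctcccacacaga
BTG1 site, chr12:91818911-91819111: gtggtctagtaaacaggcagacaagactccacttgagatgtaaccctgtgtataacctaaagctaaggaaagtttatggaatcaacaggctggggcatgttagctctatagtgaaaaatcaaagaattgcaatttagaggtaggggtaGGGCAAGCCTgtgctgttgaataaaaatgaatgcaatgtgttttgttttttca
A match to these letters describes the sequence and does not show that a factor was bound. Among the sites named later, CAMK1G and DTL were lower with EGF and also held AP-1 letters. FOXD4L5, ZNF184 and PDZK1 were higher with EGF and held none of the motifs searched.

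The libraries of both treatments varied widely in peak number. EGF replicates A to D listed 60180, 43099, 83779 and 100669 peak summits, and PBS replicates A to C listed 102160, 43898 and 37686. The mean was 71930 ± 25400 with EGF and 61250 ± 35570 with PBS (SD, n = 4 and 3), and the difference was within the spread (exact permutation test of log10 numbers over 35 splits, two-sided, p = 0.629, adjusted over 5 library measures 0.943). The share of promoter-proximal summits was 24.6% ± 3.75 with EGF and 28.6% ± 7.17 with PBS (SD, exact permutation p = 0.371, adjusted 0.943). Background coverage, the measure of depth that the peak values hold, ranged from 0.817 to 1.307 fragments per base with EGF and 0.979 to 1.165 with PBS, so the groups overlapped. A design of 4 against 3 libraries cannot give a p below 0.0286.

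**Figure D1:**
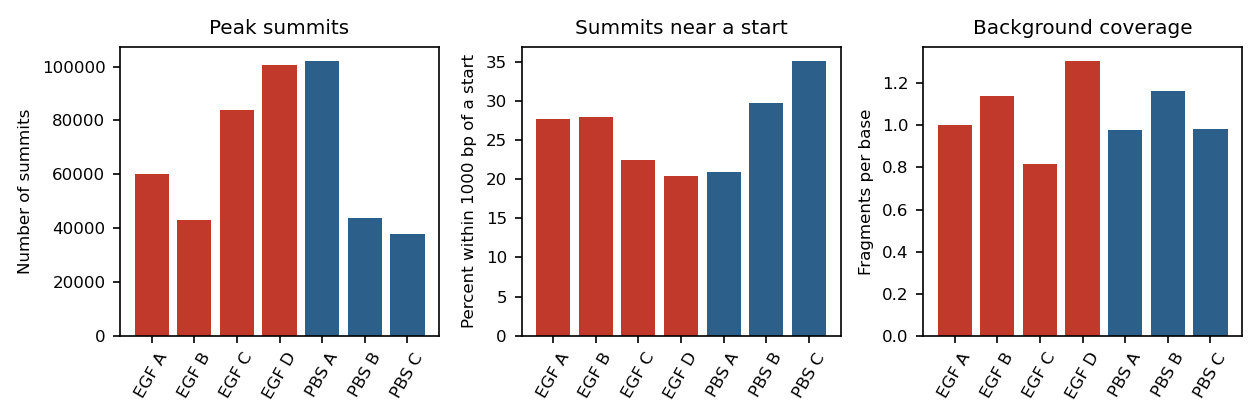
Peak summits per library, percent of summits within 1000 bp of a protein-coding start, and background coverage in fragments per base, as bars from 0 for the 4 EGF (red) and 3 PBS (blue) libraries. EGF D and PBS A have the most summits, 100669 and 102160, and PBS C the fewest, 37686, so the treatments overlap.

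The file names hold a sequencing lane number, which does not by itself show that libraries were sequenced in the same run. Among these 7 libraries, EGF A (7) and PBS C (8) each had a lane number of their own. EGF C shared a lane number with PBS B, and EGF B and D shared one with PBS A. The study's own quality check on the share of reads in peaks did not pass EGF B. Basal epithelial starts were open in all 7 libraries at 4 of 10 marker genes (CDH3, ITGA6, ITGB4 and LAMB3). KRT5 was open in 6 of 7, CDH1 in 5, KRT17 in 3 and KRT14 in 2, and TP63 and GRHL2 had no peak at their starts. Of 6 luminal and hormone receptor markers, 3 were open in all 7 libraries (KRT8, KRT18 and FOXA1). GATA3 was open in 3 libraries, and ESR1 and PGR had no peak. Starts of the endothelial markers were closed in all libraries (0 of 4 genes), 1 of 5 blood markers had a peak (CD14, in all 7), and the fibroblast markers COL1A2 and DCN had a peak in 2 libraries each.

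Peak strength at the shared sites moved in both directions with EGF, mostly away from promoters. Among the 20878 sites with a peak in all 7 libraries, 47 were higher and 21 lower with EGF (limma on quantile-normalised log2 fold enrichment, adjusted p below 0.05), which is 0.225% and 0.101% of the sites tested. Only 1 of these 68 sites was promoter-proximal, near PDZK1, whereas 7800 of all sites tested were. Of the higher sites 25 lay in introns and 21 between genes, and of the lower sites 12 and 9. The log2 differences of the called sites were 0.82 to 1.51 in size among the higher and 0.83 to 1.42 among the lower. The number of calls changed when 1 library was left out, which also left fewer libraries to test. There were 0 calls without EGF A, 2 without EGF C, 5 without EGF D, 14 without PBS B and 12 without PBS C, against 107 without PBS A. The cause of these changes was not tested. Without EGF B, 85 sites were called, 43 higher and 42 lower, so the excess of higher sites was not present. Of the 47 higher sites 33 were called there, and of the 21 lower sites 11. With the lane number as a term, a fit added after the data were seen, 0 sites were called. In that fit EGF A and PBS C add nothing to the comparison of treatments, since each is alone at its lane number.

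Sites, with hg38 coordinates, are named here by the nearest protein-coding start, which does not show that they act on that gene. The values given are quantile-normalised fold enrichments, which compare the fragment pileup at the summit with the local background. The largest rise, at chr10:2213916-2214600, lay between genes 476745 bp from ADARB2, which encodes a member of the RNA-editing adenosine deaminase family. Its values were 15.3, 13.2, 18.4 and 14.5 in EGF A to D and 4.59, 4.27 and 7.77 in PBS A to C. The log2 difference was 1.51 ± 0.21 (SE, limma adjusted p = 0.00894). Every EGF library was above every PBS library, and the site was called in 6 of the 7 fits that left out 1 library.

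The site in an intron of SUSD1, a gene for a sushi domain protein, at chr9:112041564-112042225, reached 13.8, 13.8, 13.9 and 12.7 with EGF. With PBS it stood at 4.23, 5.09 and 6.43. The log2 difference was 1.39 ± 0.18 (SE, limma adjusted p = 0.00697), and it too held in 6 of 7 such fits. The EGF libraries were close to each other here, while the PBS libraries were spread over a wider relative range.

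A site 139236 bp from KLF6, which encodes a Krüppel-like transcription factor, had 14.5, 12.97, 16.1 and 14.4 with EGF against 7.03, 5.62 and 7.08 with PBS (log2 difference 1.14 ± 0.17, SE). A site in an intron of CCDC192, nearest to the sodium, potassium and chloride cotransporter gene SLC12A2 (chr5:127934773-127935581), had 16.9, 17.4, 17.0 and 14.2 against 7.86, 5.80 and 8.49 (log2 difference 1.17 ± 0.18). Both were separated between treatments, with limma adjusted p of 0.0201 and 0.0206, and both were called in 4 of 7 fits that left out 1 library. A site in an intron of PTPN14, which encodes a phosphatase that restrains YAP (chr1:214427680-214428249), had 13.3, 10.4, 11.7 and 10.7 with EGF. Its PBS values were 4.91, 7.01 and 4.21. It was 2.18-fold higher with EGF and was called in 3 of 7 fits that left out 1 library.

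A site 94853 bp from TGFBR2, the type II receptor for TGF-beta, had 14.4, 11.8, 10.3 and 11.8 with EGF and 6.00, 4.27 and 7.08 with PBS. The promoter-proximal rise at chr1:145706169-145706864, 873 bp from a start of the scaffold gene PDZK1, had 8.67, 8.43, 11.1 and 12.0 with EGF and 6.43, 4.09 and 4.07 with PBS (log2 difference 1.06 ± 0.20, SE, limma adjusted p = 0.0398). The TGFBR2 and PDZK1 sites were each called in 2 of 7 fits that left out 1 library. Other named rises were nearest to FOXD4L5, CBR4 (in an intron of SH3RF1), ISM1, MTUS1, TMEM184C, ZNF184 and RNFT2, and were 1.99-fold to 2.25-fold higher with EGF. FOXD4L5 belongs to a family of near-identical copies, and reads there could have been split among them, so its value is uncertain.

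The largest fall, at chr20:20772544-20773183, lay between genes 60178 bp from RALGAPA2, which encodes a subunit of a GTPase activator for RAL proteins. Its values were 4.45, 4.33, 3.52 and 9.68 in EGF A to D and 17.0, 13.03 and 11.2 in PBS A to C. The log2 difference was -1.42 ± 0.27 (SE, limma adjusted p = 0.0378). EGF D stood apart from the other EGF libraries but below all PBS libraries, and the site was called in 1 of the 7 fits that left out 1 library. Without EGF B its limma adjusted p was 0.0513.

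A site in an intron of BMF, a pro-apoptotic member of the BCL2 family, at chr15:40103131-40103893, had 5.05, 3.38, 4.29 and 4.25 with EGF and 7.06, 9.74 and 7.84 with PBS. It was 1.94-fold lower with EGF (log2 difference -0.95 ± 0.19, SE, limma adjusted p = 0.0401). An intron of DTL, the substrate receptor of a ubiquitin ligase that acts in DNA replication, held a site at chr1:212076837-212077389 with 5.75, 5.95, 7.78 and 7.50 with EGF and 16.7, 12.5 and 10.9 with PBS. An intron of LPP held the site nearest TPRG1, whose sequence is shown above, with 5.37, 7.99, 5.95 and 5.76 against 11.2, 10.5 and 15.6. In each of these 3 the PBS libraries lay above all EGF libraries. Of the 7 fits that left out 1 library, DTL was called in 0, BMF in 1 and TPRG1 in 2. Without EGF B the limma adjusted p was 0.0641 for DTL and 0.0658 for BMF.

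The site in an intron of ADAMTS17, nearest to LYSMD4 (chr15:99998640-99999392), had values within 5.91 to 6.49 with EGF and 11.4 to 13.1 with PBS (log2 difference -1.02 ± 0.17, SE, limma adjusted p = 0.0206). It was called in 3 of 7 fits that left out 1 library. The site 43666 bp from RBM38, which encodes an RNA-binding protein and is a known target of p53, had 4.33, 6.44, 7.62 and 6.15 with EGF and 10.8, 12.1 and 11.9 with PBS, and its limma adjusted p without EGF B was 0.0584. The RBM38 site was called in 1 of these fits. Further falls lay nearest to GTF2I, OR4D9, RBM20, SNRNP48, ST6GALNAC2, CAMK1G, DOCK1, TBC1D22A and SOX7, and were 1.85-fold to 2.24-fold lower with EGF. Of these, ST6GALNAC2, TBC1D22A and SOX7 were not called without EGF B, and ST6GALNAC2 was not called in any fit that left out 1 library. GTF2I lies among near-identical copies, so its value is uncertain as well. The site in an intron of CAMK1G lay within 50 kb of LAMB3, a laminin chain of the basement membrane, and its log2 difference was -0.92 ± 0.17 (SE) in fold enrichment but -0.04 in the recovered fragment pileup (limma adjusted p = 0.929). The OR4D9 site was not called on pileup either (log2 difference -0.34, limma adjusted p = 0.473).

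**Figure D2:**
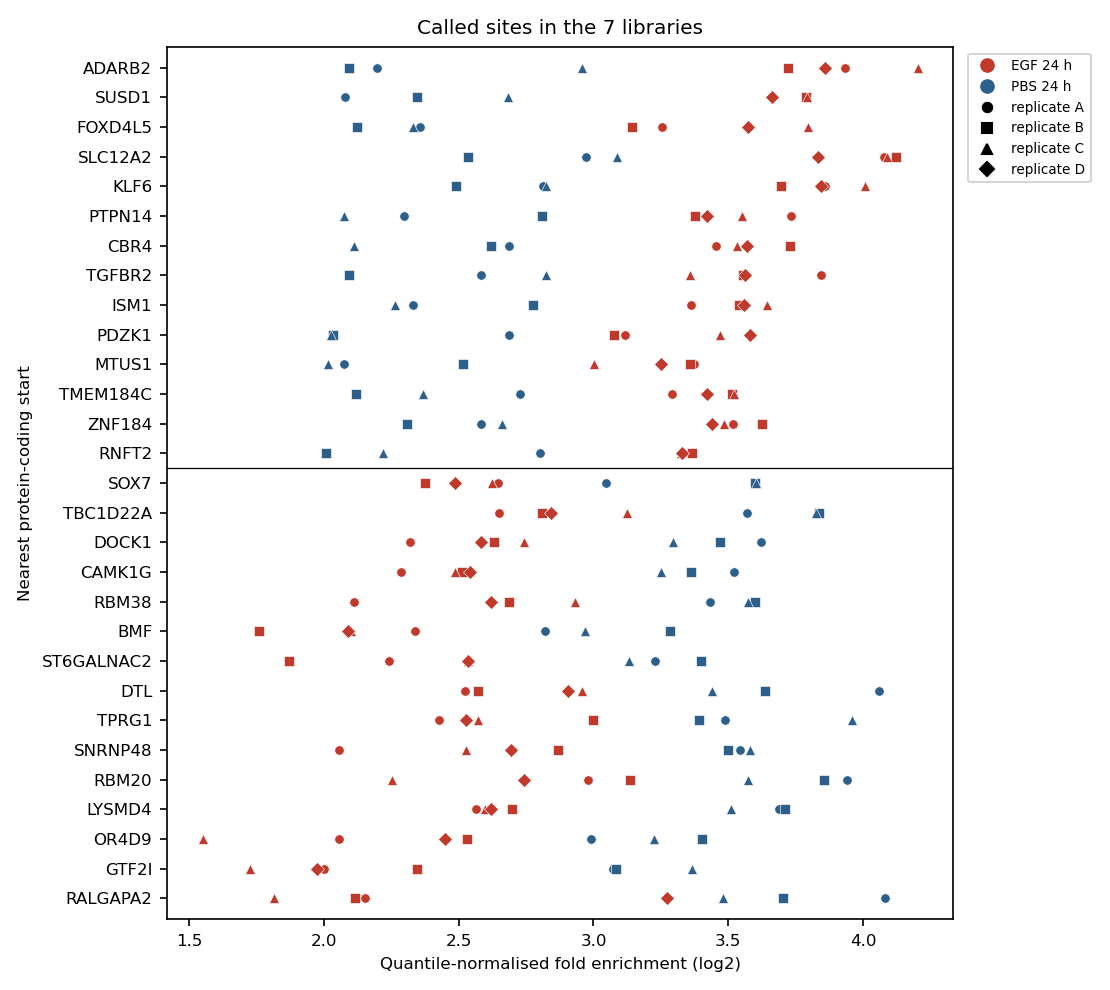
Quantile-normalised fold enrichment (log2, x axis) of the named raised (above the line) and lowered (below it) called sites (y axis, named by nearest protein-coding start) in each library; red points are EGF and blue points PBS, and the shape gives the replicate. At each site the treatments do not overlap, and EGF D at RALGAPA2 (9.68 on the linear scale) lies closest to the PBS libraries of its row.

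The fragment pileup at the summit, which fold enrichment and p together fix, was recovered as whole fragments and gave many more calls. On log2 pileup, 818 sites were higher and 507 lower with EGF (limma adjusted p below 0.05), which is 3.92% and 2.43% of the sites tested. Of the 68 sites called on fold enrichment, all kept their sign, and 46 of the 47 higher and 18 of the 21 lower were called on pileup too. At ADARB2 the pileup was 39, 23, 60 and 83 fragments with EGF and 11, 7 and 11 with PBS. At RALGAPA2 it was 8, 8, 6 and 32 with EGF and 94, 32 and 22 with PBS, where the lowest PBS library was below EGF D before normalisation.

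Counted over sites, those near promoters and those away from them differed in how they leaned. Sites of the same libraries are not independent, and this lean was not tested over libraries. The share of promoter-proximal summits also varied among libraries, from 20.4% in EGF D to 35.1% in PBS C. The median log2 difference was -0.07 over the 7800 promoter-proximal sites and 0.03 over the 13078 distal ones. At an unadjusted p below 0.05, 102 promoter-proximal sites were higher and 332 lower with EGF, and 1309 distal sites were higher and 708 lower. Over all sites these were 6.76% higher and 4.98% lower. The groups did not overlap at 1269 sites higher (6.08%) and 1028 sites lower (4.92%) with EGF.

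At 48 h, in libraries that took no part in the choice of sites, most of the called sites leaned the same way. Of the 47 sites higher with EGF at 24 h, 27 had a peak in at least 2 EGF and 2 PBS libraries at 48 h, and 26 of these were higher with EGF (96.3%, against 51.7% of all sites measured). The median log2 difference was 0.71 at 48 h and 0.95 at 24 h. Of the 20 others, 9 had a peak in no PBS library at 48 h and 11 in 1. Of all 20878 sites, 96.2%, 96.1% and 52.3% had a peak in PBS A to C at 48 h. All 47 had a peak in every EGF library at 48 h and every ctrl library at 0 h, where all sites stood at 99.5% to 99.7% and 99.8% to 99.9% per library. Of the 21 lower sites, 16 were lower at 48 h (76.2%, against 48.3% of all sites), with a median of -0.43. The site near RALGAPA2, the largest fall at 24 h, was not lower at 48 h, with a log2 difference of 0.18. Nor were those near LYSMD4 (0.45), RBM38 (0.04) and TBC1D22A (0.005).

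In the ctrl libraries, taken after the hold without EGF and before any ligand, the sites higher with EGF had a median level 0.10 below that of the EGF libraries and 0.83 above that of the PBS libraries (log2, normalised together). The lower sites had a median 0.40 above EGF and 0.58 below PBS. So the level at 0 h was near that with EGF at the first group and between both treatments at the second. Since the sites were chosen for a difference between EGF and PBS, these levels are a description.

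Detection of a peak, adjusted for the peak number of each library, gave 0 calls among the 59482 sites found in 2 to 6 libraries (limma adjusted p below 0.05, with detection differing by 0.5 or more), or 0.0%. At an unadjusted p below 0.05, 2501 sites leaned higher and 3743 lower with EGF. A site with a peak in all 4 EGF and no PBS library, the widest split that a site can have in that direction, reached an adjusted p of 0.196, and the reverse pattern reached 0.0682. With the spread taken over all 13 groups of the series, 123 sites were higher and 384 lower (0.207% and 0.646%). Without EGF D, 400 sites were called, all lower with EGF, and the other fits that left out 1 library gave 0 calls.

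In all, 714 sites had a peak in 4 of 4 EGF and 0 of 3 PBS libraries, or 1.2% of those tested, and 199 had the reverse pattern, or 0.335%. Both kinds lay far from promoters, at 1.68% and 3.52% promoter-proximal against 9.18% of the sites tested. The median distance to a protein-coding start was 48500 bp and 57620 bp, against 35692 bp. These shares are descriptions, since the pattern chose the sites.

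Of the 8 EGF-only sites with the highest mean fold enrichment, those nearest to VPS50 and PPP1R12A lay in introns of these genes. PPP1R12A encodes the targeting subunit of myosin phosphatase. At PPP1R12A the deposited fold enrichment was 9.83, 8.69, 12.95 and 18.9 in EGF A to D, and no PBS library had a peak. The others were nearest to PPIAL4A, KHDRBS3, S1PR1 (a sphingosine 1-phosphate receptor), SASH1, ACO1 and PSMD6, with mean fold enrichments of 12.1 to 13.9. All 4 EGF libraries at 48 h had a peak at 5 of these 8 sites, and only ACO1 had a peak in a PBS library at 48 h.

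The strongest of the PBS-only sites lay nearest to DECR1, NR3C2, which encodes the mineralocorticoid receptor, RGL1, GPCPD1, HS6ST3, RAB3GAP2, BTG1 and PPIAL4G, with mean fold enrichments of 10.3 to 11.7. At the site 326835 bp from BTG1, an anti-proliferative gene, fold enrichment was 11.1, 10.2 and 10.2 in PBS A to C. At the DECR1 site, in an intron of a mitochondrial enzyme of fatty acid oxidation, it was 18.1, 9.71 and 7.32. These sites were mixed at 48 h. HS6ST3 and RAB3GAP2 had a peak in 0 of 4 EGF libraries at 48 h, while DECR1, RGL1, BTG1 and PPIAL4G had one in 4 of 4. PPIAL4A and PPIAL4G belong to a family of near-identical copies, so both are uncertain.

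The libraries of 48 h, which did not choose these sites, separated the EGF-only sites in the same direction. For the PBS-only sites this held in PBS A and B at 48 h, but PBS C lay below every EGF library. The EGF-only sites had a peak in 71.6%, 79.7%, 86.4% and 74.7% of cases in EGF A to D at 48 h, but in 2.52%, 3.78% and 0.28% in PBS A to C at 48 h. Other sites found in 4 of the 7 libraries had a peak in 70.4% to 84.4% and in 34.3%, 32.8% and 2.99%. The EGF-only sites thus matched sites of their class in EGF libraries at 48 h and fell well below them in all 3 PBS libraries. PBS C at 48 h, which the study's quality check did not pass, had a peak at 3.81% of all sites tested.

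The PBS-only sites had a peak in 68.8%, 72.9% and 12.6% of cases in PBS A to C at 48 h, against 19.5%, 18.5% and 2.01% of other sites found in 3 of the 7 libraries. In EGF A to D at 48 h they had a peak in 42.2%, 34.2%, 43.2% and 44.7% of cases, against 46.4% to 68.9%. At 0 h the ctrl libraries had a peak at 94.96% to 99.2% of the EGF-only sites and at 62.3% to 86.4% of the PBS-only sites. Other sites found in 4 libraries stood at 94.1% to 96.0% at 0 h, near the EGF-only sites, and other sites found in 3 libraries at 83.6% to 88.7%.

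**Figure D3:**
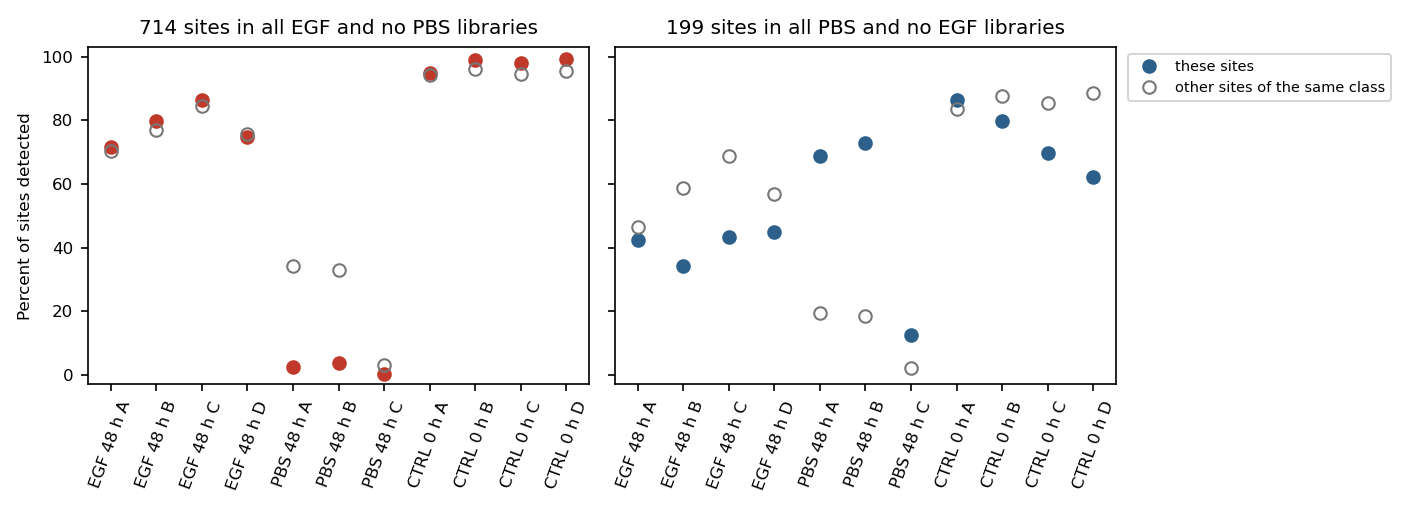
Percent of sites with a peak (y axis) in each library of EGF 48 h, PBS 48 h and ctrl 0 h (CTRL, x axis), for the sites detected in all EGF and no PBS libraries at 24 h (left, red) and the reverse (right, blue), with other sites found in as many of the 7 libraries as open circles. On the left the filled points lie at 0.28% to 3.78% in PBS at 48 h, and on the right PBS A and B at 48 h lie at 68.8% and 72.9%, above the open circles.

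Sequence motifs were compared between the treatments next. For 22 motifs, sites holding the letters within 100 bp of the centre summit were counted in each library over the number that its detection shares predict. The treatments did not overlap for 6 of the 22 (27.3%): AP-1, TEAD and RUNX motifs were higher with EGF in every library, and ATF4/CHOP, p53/p63 and NF-kB motifs lower. They are described here because their groups did not overlap. The exact permutation p was 0.0286, the lowest possible, for 5 of the 22 motifs, and their adjusted p was 0.126, so no motif passed the correction.

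AP-1 letters lay at 29.2% of all sites. Sites with them were detected 2.47%, 12.8%, 4.54% and 3.95% more often than predicted in EGF A to D, and -2.68%, -11.8% and -34.0% in PBS A to C. The difference was 22.1 percentage points (EGF 5.95 ± 4.67, PBS -16.2 ± 16.1, SD, exact permutation p = 0.0286, adjusted 0.126). Among libraries that shared a lane number, EGF C had 4.54% against -11.8% in PBS B. EGF B and D, at another lane number, had 12.8% and 3.95% against -2.68% in PBS A. EGF A and PBS C had no library of the other treatment at their lane number, and an effect of lane on these values was not tested.

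TEAD letters, at 15% of sites, gave 6.11%, 13.5%, 1.82% and 1.80% in EGF A to D and -4.40%, -9.80% and -17.9% in PBS A to C. RUNX letters, at 5.96% of sites, gave 3.10% to 14.8% with EGF and -30.9% to -5.57% with PBS. For both, EGF B was the highest and PBS C the lowest library, which are 2 of the 3 libraries with the fewest peaks. Without EGF B the differences were 12.0 for TEAD and 19.0 percentage points for RUNX, and without PBS C 16.7 and 20.0.

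ATF4/CHOP letters lay at 1.47% of sites and went the other way, at -8.11%, -16.2%, -4.12% and -3.10% in EGF A to D and 4.49%, 28.3% and 15.4% in PBS A to C (exact permutation p = 0.0286, adjusted 0.126). The p53/p63 half-site, at 7.35% of sites, gave -6.54% to -1.20% with EGF and 3.16% to 13.3% with PBS. NF-kB letters (GGGANTTTC), at 0.914% of sites, gave -15.2% to 1.29% with EGF and 3.84% to 20.1% with PBS (exact permutation p = 0.0571, adjusted 0.180). The share of RefSeq promoter windows (GRCh38.p14), which are not of the same length as the windows around summits, with AP-1, TEAD, RUNX and ATF4/CHOP letters was 4.95%, 14.0%, 4.27% and 0.866%.

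Peak strength was compared by motif at distal sites found in all 7 libraries. The median normalised log2 fold enrichment of sites with AP-1 letters exceeded that of sites without them by 0.16, 0.15, 0.22 and 0.22 in EGF A to D, and by 0.14, 0.09 and 0.05 in PBS A to C. For TEAD the values were 0.01 to 0.04 with EGF and -0.03 in all 3 PBS libraries. For ATF4/CHOP they were 0.01 to 0.04 with EGF and 0.09, 0.13 and 0.09 with PBS. NF-kB letters, lower with EGF in detection, overlapped between treatments in strength, with a difference of 0.02. The MYC E-box (CACGTG) separated the treatments in strength only, at -0.12 to -0.07 with EGF and 0.00, 0.03 and 0.01 with PBS. In each of these 4, and for RUNX, the exact permutation p was 0.0286 and the adjusted p 0.126. AP-1 letters lay at 44.7% of the 47 called higher sites and 14.3% of the 21 lower, against 41.6% of all distal sites in all 7 libraries. For TEAD these shares were 27.7%, 14.3% and 16.7%, and for RUNX 14.9%, 14.3% and 7.39%. The shares in called sites were not tested.

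At 48 h the strength values of AP-1 were 0.11 to 0.16 with EGF and 0.01 to 0.06 with PBS, and those of TEAD were 0.03 to 0.05 and -0.06 to -0.04. RUNX, ATF4/CHOP and the MYC E-box were separated at 48 h in the same direction as at 24 h as well (exact permutation p = 0.0286 each, adjusted over 21 motifs 0.0667). Separation at 48 h was not particular to these motifs, since forkhead, E2F, C/EBP, NRF1, NF-kB and CACCTG E-box letters were separated too. The p53/p63 half-site was not, with a difference of -0.01 at 48 h and -0.06 at 24 h. At 0 h the ctrl libraries lay at 0.14 to 0.20 for AP-1 and at -0.11 to -0.08 for the MYC E-box, values on the side of EGF.

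**Figure D4:**
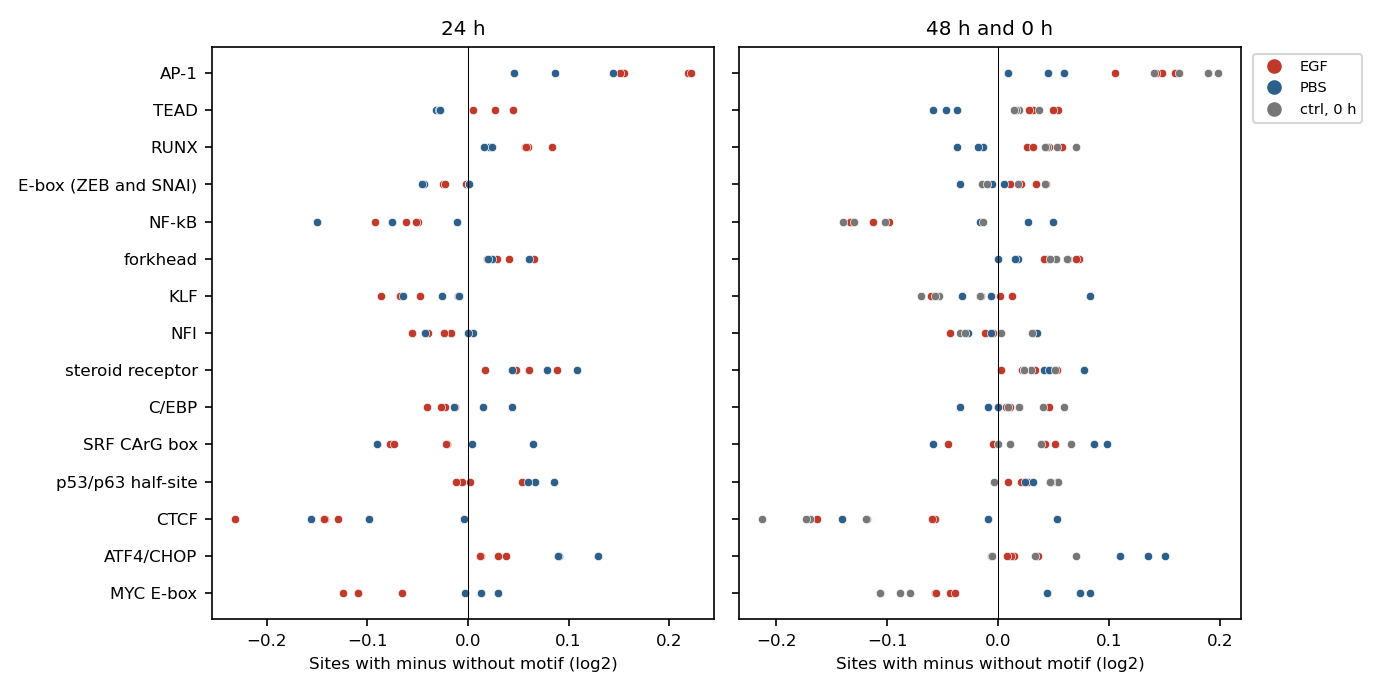
Median normalised log2 fold enrichment of distal sites with a motif minus that of sites without it (x axis), for each motif held by at least 100 such sites (y axis), with 1 point per library: EGF red, PBS blue, ctrl at 0 h grey. AP-1, TEAD and RUNX are higher in every EGF than in every PBS library at 24 h and at 48 h, and ATF4/CHOP and the MYC E-box lower.

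The genes of the EGF pathway itself showed little at their own starts. Of the EGF family ligands, 5 of 8 genes had a promoter-proximal peak in all 7 libraries, and EGF itself had none. The heparin-binding ligand HBEGF had 7.57, 5.84, 5.56 and 5.43 with EGF and 7.11, 8.46 and 9.55 with PBS, with overlap between treatments (log2 difference -0.46 ± 0.18, SE, limma adjusted p = 0.318). Amphiregulin, AREG, had 6.33, 6.57, 5.61 and 6.24 against 5.65, 8.83 and 12.2 (adjusted p = 0.417). The median log2 difference over the 5 promoter-proximal sites of the ligands was -0.42, against -0.07 over all promoter-proximal sites.

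At the receptor EGFR the start had 8.11, 9.35, 10.6 and 8.69 with EGF and 10.5, 13.1 and 8.33 with PBS, a log2 difference of -0.20 ± 0.19 (SE, limma adjusted p = 0.758). ERBB2 and ERBB3 differed by -0.08 ± 0.19 and 0.08 ± 0.17. Among the feedback inhibitors, the MAPK phosphatase DUSP6 differed by 0.15 ± 0.20 and the RAS pathway inhibitor SPRY1 by -0.49 ± 0.19 (limma adjusted p of 0.838 and 0.302). Among immediate early genes, JUN, EGR1 and MYC differed by 0.21 ± 0.20, -0.05 ± 0.21 and -0.09 ± 0.21.

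Over the 12 gene lists, the median log2 difference of sites within 50 kb of a start ran from -0.14 (squamous differentiation, 30 sites, and quiescence and FOXO targets, 43 sites) to 0.02 (sterol and lipid synthesis, 25 sites), against -0.01 over all 20878 sites. The list medians in between were -0.03 for EGF ligands, -0.03 for ERBB receptors and adaptors, -0.06 for the RAS and MAPK cascade, -0.01 for feedback inhibitors, -0.10 for immediate early genes, -0.03 for the cell cycle, -0.04 for migration, adhesion and proteases, -0.04 for interferon response and -0.01 for glucocorticoid targets. The site near LAMB3 was the only called site within 50 kb of a list gene. Among the genes reported, an EGF-only site lay within 50 kb of AREG, EGFR, MAP2K1, DUSP6, CDKN1A and PLAU, and a PBS-only site within 50 kb of FOSL1, EGR1, EGR3 and TXNIP. These genes were named after their values were seen, and each had 1 such site.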

How the data were processed

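Per the labels and the study's methods, the authors trimmed reads with Trimmomatic 0.36.5, aligned them to hg38 with Bowtie2 2.3.4.1, removed duplicates with Picard and called peaks in each library with MACS2 2.1.1.20160309.5 at a q of 0.01 with no control. The deposited files list 1 row per summit. The deposited ratio is the fold enrichment, (pileup + 1) over (background + 1). The deposited -log10 values are of the p and q, and the deposited score is 10 times the latter. Read counts were not used here. Pileup and background were solved from fold enrichment and p, and at least 99.995% of pileups came out whole within 0.02.

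Peaks on chromosomes 1 to 22 and X were merged over the 7 libraries and annotated with GENCODE 44. The highest fold enrichment of a site was quantile-normalised on the log2 scale and tested with limma 3.58.1 in R 4.3.3, with Benjamini-Hochberg adjustment. Detection was 1 or 0 minus the share of the site's class (number of libraries) that the library detects. Library measures and motifs were compared by exact two-sided permutation over 35 splits. The named sites are the 15 called sites with the largest difference in each direction and the 8 EGF-only and 8 PBS-only sites with the highest mean fold enrichment. Some of these items are not reported here. Groups came from the labels. The members, lists and tests were chosen with earlier results of these data known. The tests were checked on simulated data. Alternatives changed normalisation, measure, sites, thresholds, weights, the replicate block and the libraries.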

Additional observations from a re-analysis of the deposited data

Results flagged for a closer look

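In 48 sets of the 4 EGF libraries, 1 library stood far from the other 3 in 4 sets. The sets were the library measures, the motifs whose treatments did not overlap, the named called sites and ETS detection. ETS was added by name, although its treatments overlapped. Chance alone marks about 1 in 20 sets that were not selected. The called sites and the separated motifs were chosen by these same values, so that rate need not hold here. The RUNX strength value was 0.08 in EGF B and 0.06 in each of the others, a gap of 0.892 of the range. The ETS detection value was -27.7% in EGF B and 2.24% to 5.98% in the others, a gap of 0.889. At the SUSD1 site EGF D had a normalised log2 fold enrichment of 3.66 against 3.79 in each of the others, a gap of 0.962, and at the SLC12A2 site EGF D had 3.83 against 4.08 to 4.12, a gap of 0.853. At both sites EGF D was still above all PBS libraries.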

How the results depend on the processing

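Of 20878 shared sites, 68 were called on fold enrichment. The count was 1325 with recovered pileup, 153 with array weights, 131 with a trend and robust prior, 44 with sites in at least 2 libraries of each group, 22 with peaks of -log10 q of at least 5, 2 at an adjusted p below 0.01 and 0 with the lane as a term, which was added after the data were seen. Leaving out 1 library gave 0 to 107 calls. The cause of these shifts was not tested. Median centring (72), cyclic loess (102) and an overlap of 100 bp (68) stayed within 1.5 times. No named site changed sign, and all 30 were called under those 3 settings and with array weights or a trend.

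For detection, 0 sites were called, against 913 without adjustment, 2353 with the same number of strongest peaks per library, 507 with the spread of all 13 groups and 231 with array weights. Leaving out 1 library gave 0 to 400. The other settings gave 0, except the replicate block below. Peak number, promoter share and the motif counts kept their side of the threshold in all settings. The detection difference of ETS motifs, -5.64 percentage points, was 23.7 at distal sites only, and ran from -22.5 to 12.0 when 1 library was left out. None of the 6 motifs separated in detection, or of the 6 in strength, changed sign in any setting.

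The replicate letters did not pair the libraries: deviations of same-letter libraries correlated at -0.174 (A), 0.203 (B) and -0.166 (C). With the letter as a replicate block, 3 sites were called for strength and 201 for detection.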

Other observations

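Some motifs overlapped between treatments at 24 h but not at 48 h in peak strength. Forkhead letters (TGTTTAC) gave 0.04 to 0.07 with EGF and 0.00 to 0.02 with PBS at 48 h, against 0.02 to 0.07 and 0.02 to 0.06 at 24 h. NF-kB letters gave -0.13 to -0.10 with EGF and -0.02 to 0.05 with PBS at 48 h, against -0.09 to -0.05 and -0.15 to -0.01 at 24 h. The difference at 48 h was 0.05 for forkhead and -0.14 for NF-kB (exact permutation p = 0.0286, adjusted 0.0667). E2F and NRF1 letters separated the treatments at 48 h as well, at -0.17 and -0.30, but rest on 37 and 25 distal sites. C/EBP and CACCTG E-box letters did so too, at 0.03 and 0.04 (exact permutation p = 0.0571 each, adjusted 0.109). Separation in strength at 48 h was thus common among the motifs and not particular to a few. The difference between the times was not tested.

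In detection at 48 h the treatments did not overlap for most of the 22 motifs. These were AP-1, CRE, TEAD, RUNX, ETS, CArG box, C/EBP, ATF4/CHOP, NRF1, NF-kB, steroid receptor, KLF, E-box and MYC E-box (exact permutation p = 0.0286, adjusted 0.0449 each). The adjusted p is below 0.05 because so many motifs share the lowest possible p, so it singles out no motif. PBS C held the most extreme values, such as 147.5% for steroid receptor and 156.3% for NRF1 letters. Sites with AP-1 letters stood at -6.85% to -1.77% with EGF and at -20.5%, -21.3% and -65.7% in PBS A to C, of which PBS C did not pass the quality check of the study. The p53/p63 half-site overlapped, with a difference of 1.39 percentage points.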
